A study of Homo sapiens with 24 samples.

Results

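Collagens and laminins are the chains from which cells build fibrils and basement membranes. Their transcripts were followed here in human cell models of mitochondrial DNA (mtDNA) loss. The set held every gene with a symbol of the form COLnAn, LAMAn, LAMBn or LAMCn for which at least 1 probe set carried that symbol alone. It comprised 53 genes, 43 collagens and 10 laminins, among the 19775 genes named on the array, and 135 probe sets. Each gene was read through its brightest probe set, the one with the highest mean log2 signal over the 24 Affymetrix Human Genome U133 Plus 2.0 arrays.

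There were 8 groups of 3 arrays. HEK293 cells, an embryonic kidney line, carried a doxycycline-inducible dominant-negative form of POLG, the mtDNA polymerase. These DN-POLG cells were sampled before induction (day 0) and after 3, 6 and 9 days of doxycycline. A derivative that also expressed the yeast NADH dehydrogenase NDI1 and the alternative oxidase AOX, which together oxidise NADH without the host respiratory chain, was sampled at days 0 and 9. These NDI1/AOX cells also carried the DN-POLG transgene. The other model was the 143B osteosarcoma line, as rho+ cells with mtDNA and as rho0 cells that lost it chronically after ethidium bromide. All cells grew in high-glucose medium with uridine and pyruvate. Each 143B state was 1 cell line with no independent clones, so a difference between rho0 and rho+ cells cannot be told apart from a difference between 2 lines. The 3 samples of a group were independent cultures, and the HEK293 cultures of days 6 and 9 were pooled from several flasks.

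Collagen chains assemble in threes into a triple helix in the endoplasmic reticulum, after hydroxylation of prolines and lysines, and are then secreted, trimmed and cross-linked. Fibrillar collagens bear tension in bone, skin and cartilage. Collagen IV forms the mesh of basement membranes, and its genes lie in head-to-head pairs. Laminins are heterotrimers of 1 alpha, 1 beta and 1 gamma chain, bind integrins on the cell surface and polymerise in the same membranes. Bone-forming cells are known for abundant matrix production.

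Markers of the 2 lines separated them only in part. Of 7 HEK293 markers, NEFL, INA, LIN28B and SALL1 were above the array median on all 18 HEK293 arrays, PAX2 and EYA1 on 17 and NEFM on 1. NEFL and INA were above it on 0 of 6 of the 143B arrays, while LIN28B and SALL1 were above it on all 6. Of 10 markers of 143B cells, all but ALPL, an osteoblast enzyme (0 of 6), were above it on all 6 of the 143B arrays. VIM, CD44, LGALS1, ANXA1, CAV1 and RUNX2 were above it on all 18 HEK293 arrays too, TGFBI on 13, AXL on 6 and S100A6 on 0. Of the epithelial markers EPCAM was above it on all arrays of both lines, and KRT19 and CDH1 on 0 of 6 of the 143B arrays. Of the endothelial markers CDH5 and VWF were above it on 0 arrays and PECAM1 on 14 of 18 HEK293 and 4 of 6 of the 143B arrays. The blood marker PTPRC was above it on 1 of 18 and 0 of 6.

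The probe set of POLG that followed the transgene gave signals of 197 to 421 on the uninduced arrays and 2468 to 4739 on 11 of the 12 induced arrays. The library labelled NDI1/AOX day 9 replicate 3 gave 447, which goes against its label. The ratio of 3′ to 5′ ACTB signal, a sign of RNA quality, was 1.05 to 1.81 in HEK293 cells, apart from DN-POLG day 6 replicate 1 at 8.92. It was 10.4 to 17.1 in rho+ and 5.53 to 8.12 in rho0 cells. Its part in the differences between rho0 and rho+ cells, or between 143B and HEK293 cells, was not tested.

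In 143B cells the largest changes ran in opposite directions in single chains, not across the family. The laminin alpha-4 chain gene LAMA4 and COL22A1 rose, COL8A1 fell more than any other tested member, and most of the 29 members that could be tested did not pass. Tested were members whose mean signal over the 6 arrays reached the array-wide median, 83.3. A member passed at a Benjamini-Hochberg adjusted p below 0.05 in limma. On this rule 3 members rose and 4 fell, and the other 22 did not pass. Over all genes tested, 2.66% were called higher and 5.48% lower. The median log2 change of the 53 members was -0.29, beside -0.15 for all genes. Of the 29 tested members 12 did not overlap between the groups (41.4%), beside 34.3% of all genes tested. Of the 24 members below the filter, which had no test, 8 did not overlap between the groups, beside 20.6% of all genes below the filter.

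LAMA4, the alpha chain of the laminins of vessel walls, muscle and fat, gave signals of 122, 206 and 166 in rho+ cells. In rho0 cells it gave 4983, 4644 and 2045. Every rho0 array lay above every rho+ array. In bulk RNA, more cells expressing a gene and more transcript per cell cannot be told apart. LAMA4 rose 22.5-fold (log2 4.49, SE 0.39, limma adjusted p = 0.0019, n = 3 per group). All 5 of its probe sets pointed the same way, with log2 differences from 3.09 to 4.51, and 2 of them passed the filter and the test. In HEK293 cells LAMA4 ranged from 119 to 938, so the rho0 level was outside the range of the other 21 arrays.

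COL22A1, a fibril-associated collagen of tissue junctions, read 65.0, 83.2 and 160 in rho+ cells and 1766, 1145 and 440 in rho0 cells. The third rho0 culture was the lowest of its group, as for LAMA4, yet still above all rho+ cultures. COL22A1 rose 10.1-fold (log2 3.34, SE 0.54, limma adjusted p = 0.0136). On 2 of the 3 rho+ arrays it was at or below the array median, and 8.12-fold resulted with these raised to it. A dimmer probe set gave a log2 difference of 4.77 (adjusted p = 0.0019) and another, below the filter, 5.70. COL6A2, one of the chains of collagen VI, the beaded microfibrils around cells, read 114, 102 and 93.0 in rho+ and 198, 279 and 180 in rho0 cells. The groups did not overlap, and COL6A2 rose 2.10-fold (log2 1.07, SE 0.26, adjusted p = 0.0451). Its other probe set did not pass (log2 0.75, adjusted p = 0.161). Of its partner chains, COL6A1 gave a log2 difference of 0.76 (adjusted p = 0.179) and COL6A3 -0.14 (adjusted p = 0.818), and neither passed.

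COL7A1, which forms the anchoring fibrils of the skin, fell just outside the threshold. It read 330, 186 and 415 in rho+ cells and 2974, 2258 and 560 in rho0 cells. The groups did not overlap, with the third rho0 culture again the lowest, and the log2 difference was 2.40 (SE 0.61, limma adjusted p = 0.0512). Without rho0 replicate 3, COL7A1, COL6A1, COL16A1 and LAMB2 also passed, and all 7 members called with every array kept their call. The 11 members called without that culture compare with 7 with it. The share of all genes called without that culture was not computed, so the rise cannot be read as particular to the members.

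COL8A1, a chain of the short collagen VIII of endothelial and corneal basement membranes, read 2558, 2126 and 1531 in rho+ cells. In rho0 cells it read 43.7, 83.7 and 71.1. COL8A1 fell by 4.99 on the log2 scale as measured (SE 0.33, limma adjusted p = 4.88e-04). It reached the filter of 83.3 only through rho+ cells, as its mean signal in rho0 cells was 66.2. On 2 of the 3 rho0 arrays its signal was at or below the array's median signal, so the size is better read as a bound. With such signals raised to the array median, COL8A1 was at least 24.8-fold lower. In rho0 cells it lay within the range of the HEK293 arrays, 2.19 to 140. One other probe set pointed the same way (-4.31) and the third, dim in both states, did not (0.20), and neither reached the filter. COL8A2, the other collagen VIII chain, read 138, 150 and 111.3 in rho+ and 28.3, 30.2 and 38.3 in rho0 cells through its brightest probe set, which was below the filter. Its second probe set was called lower (log2 -1.86, adjusted p = 0.0214).

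The 3 other members that fell did so by about the same amount. COL9A3, a cartilage fibril-associated chain, read 6434, 6483 and 5701 in rho+ and 3160, 3174 and 2201 in rho0 cells (log2 -1.14, SE 0.25, limma adjusted p = 0.0330). COL27A1, a fibrillar collagen of cartilage, read 2219, 1691 and 2193 against 967, 866 and 951 (log2 -1.12, SE 0.23, adjusted p = 0.0290). COL4A6, a collagen IV chain, read 613, 624 and 572 against 320, 263 and 149 (log2 -1.38, SE 0.32, adjusted p = 0.0386). In each of these the groups did not overlap. These calls, and that of COL6A2, were the less stable ones: none of the 4 held when rho+ replicate 1, 2 or 3 or rho0 replicate 1 or 2 was left out. COL8A1 kept its call in all 12 alternative settings in which it was tested; with probe sets averaged, or with a stricter filter, it was below the filter. LAMA4 kept its call in 12 of 13 settings and COL22A1 in 9 of 13. LAMA4 lost it with a plain analysis of variance (adjusted p = 0.0627). With probe sets that match several transcripts left out, LAMA4 had no test. COL22A1 lost it without rho+ replicate 1 (adjusted p = 0.0592) or rho+ replicate 2 (adjusted p = 0.0705). It also lost it with no filter on signal and with a plain analysis of variance.

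**Figure D1:**
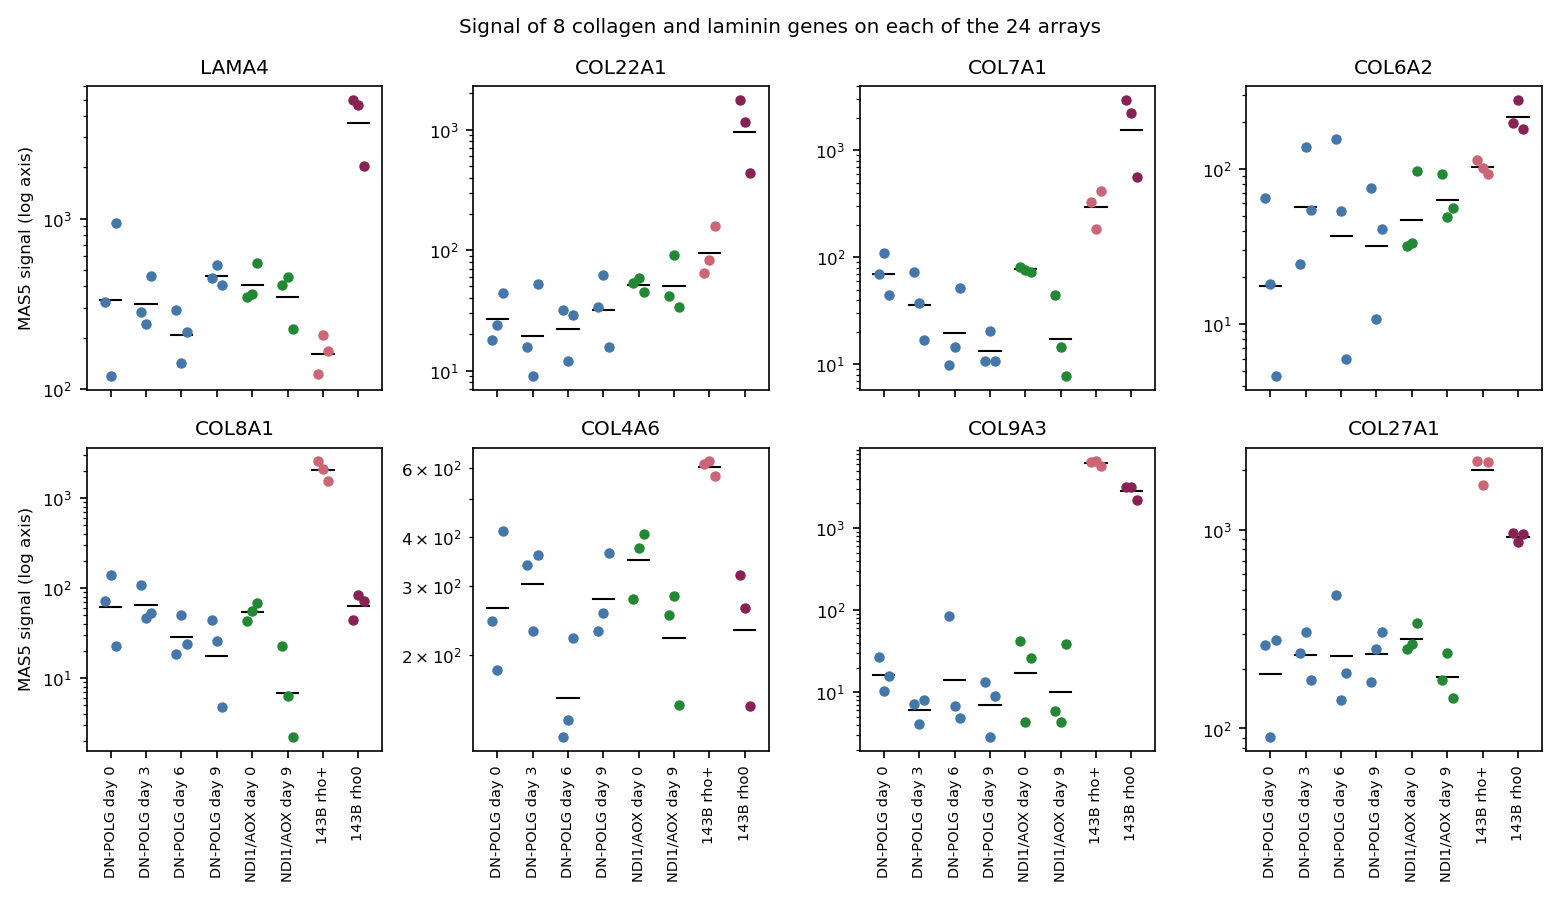
Signal (log axis) of LAMA4, COL22A1, COL7A1, COL6A2, COL8A1, COL4A6, COL9A3 and COL27A1 on each of the 24 arrays, 1 point per array, with a bar at the geometric mean of each group of 3. LAMA4 and COL22A1 stand highest in the 3 rho0 cultures, and COL8A1 and COL9A3 are high in 143B rho+ cells and at 140 or below on all HEK293 arrays.

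By structural class, at most 1 tested gene passed in each direction. Of 11 fibrillar collagens, 4 were tested and 1 fell. Of 10 fibril-associated collagens, 5 were tested, 1 rose and 1 fell. All 6 collagen IV genes had negative log2 differences, with a median of -1.11 beside -0.15 for all genes. Of the 4 tested COL4A6 fell, and COL4A5 (-0.84, adjusted p = 0.190), COL4A1 (-0.50, adjusted p = 0.513) and COL4A2 (-0.46, adjusted p = 0.508) did not pass. COL4A3 (-1.51) and COL4A4 (-5.12) were below the filter. Of 9 tested laminins, LAMA4 alone passed. Its potential trimer partners LAMB1 (log2 -0.26, adjusted p = 0.581) and LAMC1 (-0.74, adjusted p = 0.141) did not. COL1A1, the main chain of bone collagen, was too variable for a call. It read 1144, 278 and 2337 in rho+ and 3029, 3616 and 729 in rho0 cells, which overlap (log2 1.14, SE 0.84, adjusted p = 0.413). Its trimer partner COL1A2 was below the filter, with mean signals of 13.3 in rho+ and 47.0 in rho0 cells.

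Among members below the filter the extremes were large but untested. COL5A3, a fibrillar collagen V chain, read 32.9, 29.7 and 9.40 in rho+ cells and 444, 426 and 49.8 in rho0 cells. COL23A1, a transmembrane collagen, read 30.4, 23.2 and 27.8 against 153, 137 and 163. COL2A1, the cartilage fibril collagen, read 183, 140 and 99.2 in rho+ cells and at most 5.93 in rho0 cells. COL4A4 read 37.6, 73.1 and 70.7 in rho+ cells and at most 2.09 in rho0 cells. In all 4 the groups did not overlap. With no filter on signal, COL23A1, COL2A1, COL4A4 and COL8A2 passed and COL5A3 did not. In that setting COL22A1, COL27A1, COL4A6, COL6A2 and COL9A3 lost their calls.

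**Figure D2:**
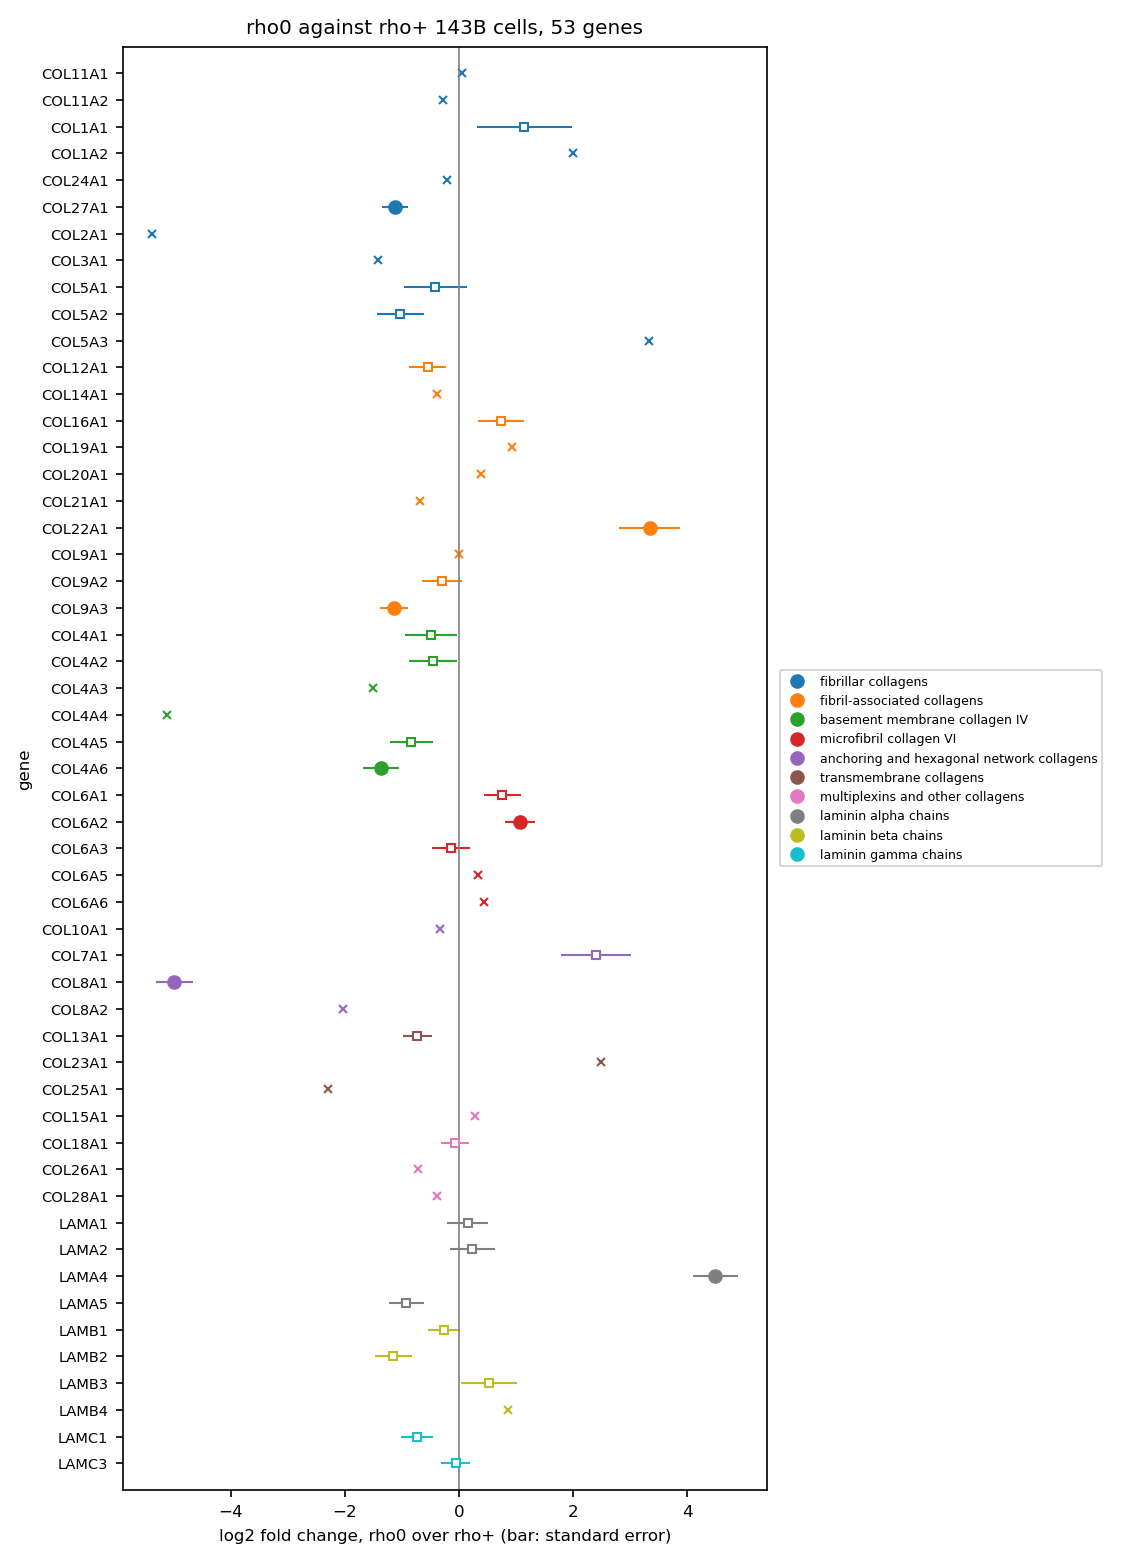
Log2 fold change of rho0 over rho+ 143B cells for the 53 collagen and laminin genes, grouped by class. Large filled circles passed limma at an adjusted p below 0.05, open squares were tested and did not pass, and crosses were below the signal filter; bars are standard errors. LAMA4 (4.49) and COL8A1 (-4.99) are the extremes of the tested genes as measured.

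The genes that process the chains were read from lists written for this purpose, with 4 of 73 tested genes higher and 3 lower. The shares over all genes tested were 2.66% higher and 5.48% lower. Of 18 tested genes for folding and modification in the endoplasmic reticulum, 0 passed in limma in rho0 against rho+ cells. Of 9 tested genes for processing and cross-linking, 2 rose and 1 fell. LOX, the lysyl oxidase that starts cross-linking, fell from 4377 ± 1183 to 1443 ± 394 (SD, n = 3, log2 -1.61, limma adjusted p = 0.0237). The procollagen N-proteinase gene ADAMTS2 rose by 1.73 and PCOLCE, an enhancer of C-propeptide removal, by 1.07 (adjusted p = 0.0164 and 0.0452). ADAMTS2 was at or below the array median on all 3 rho+ arrays, which makes it at least 2.22-fold higher. Among 10 tested proteases and inhibitors, the gelatinase MMP9 (log2 -4.23, adjusted p = 0.0070) and the bone collagenase CTSK (-2.27, adjusted p = 0.0080) fell. CTSK was at or below the array median on all 3 rho0 arrays, which makes it at least 2.47-fold lower. MMP9 was at or below it on 1 rho0 array, which makes it at least 16.4-fold lower. MMP9 and CTSK reached the filter only through rho+ cells, and ADAMTS2 only through rho0 cells. BGN, a small proteoglycan that binds collagen, rose by 2.11 (adjusted p = 0.0219), the sole call among 10 other matrix proteins tested. SMAD7, an inhibitor of TGF-beta signalling, rose by 2.04 (adjusted p = 0.0186). It was at or below the array median on 2 of the 3 rho+ arrays, which makes it at least 3.89-fold higher. Of the 10 tested receptors and 8 tested basement membrane partners, 0 passed in limma.

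In DN-POLG cells, where mtDNA was lost over days, no tested collagen or laminin gene passed at any time. The question was whether the same chains moved during acute loss. The 3 time points share their day 0 arrays. The 28 tested members were those at or above the median signal of the 18 HEK293 arrays, 57.2. Of the members called in rho0 against rho+ cells, LAMA4, COL27A1 and COL4A6 were among them. COL22A1, COL6A2, COL9A3 and COL8A1 were below this filter, so whether they moved was not tested. At day 3, 0 passed in limma, with 0 at an unadjusted p below 0.05, beside 2.37% of all genes, and of all genes 0% were called in either direction. At day 6, 0 passed, with 2 (COL4A6 and LAMC1) at an unadjusted p below 0.05, beside 15.3% of all genes at that level. Among all genes 0.207% were called higher and 1.00% lower after adjustment. At day 9, 0 passed, with 1 (COL11A2) at an unadjusted p below 0.05, beside 20.3% of all genes. After adjustment 1.30% of all genes were higher and 6.40% lower. A plain analysis of variance with adjustment also called 0 members at each time. At an unadjusted p it called 0, 1 and 0 members at days 3, 6 and 9. The log2 differences of the 28 members ran from -0.71 to 0.70 at day 3, from -0.77 to 0.43 at day 6 and from -0.85 to 0.93 at day 9, with a median standard error of 0.46. Differences near the size of that error, and some well above it, could not be called in single genes with 3 cultures a group. COL11A2 at day 9, for example, did not pass at 0.59 (SE 0.28, limma adjusted p = 0.230). The lack of calls therefore does not show a lack of change.

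LAMC1, the gamma chain shared by most laminins, illustrates the size of the shifts. It read 3195, 2020 and 3157 at day 0, and 3003, 3072 and 2854 at day 3. It then read 1768, 1716 and 1946 at day 6, and 1920, 1782 and 2341 at day 9. The day 6 values lay below all day 0 values, but the log2 difference of -0.60 (SE 0.23) did not pass (limma adjusted p = 0.224). LAMA4 did not repeat its 143B pattern: it read 323, 119 and 938 at day 0 and 447, 532 and 406 at day 9 (log2 0.47, SE 0.54, adjusted p = 0.691). The 143B and HEK293 responses were not tested against each other.

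**Figure D3:**
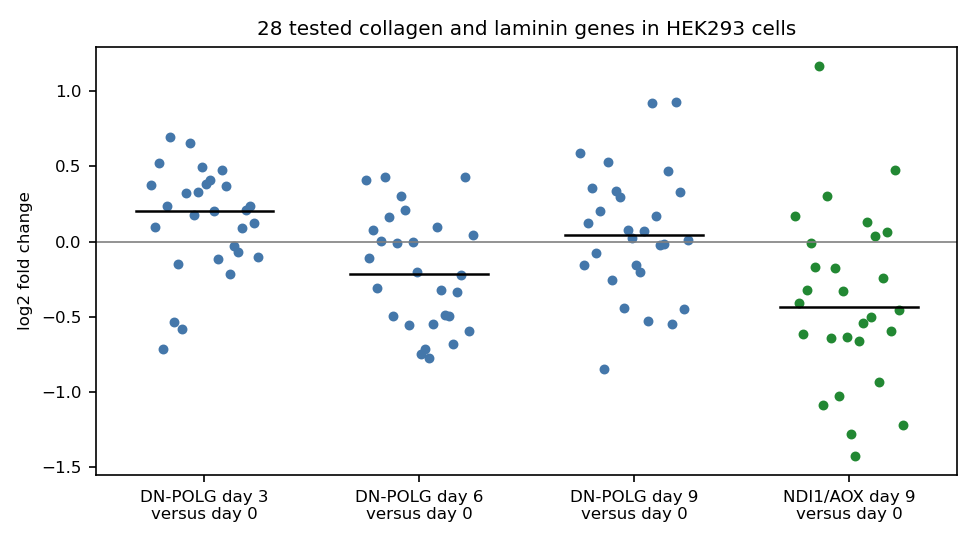
Log2 fold changes of the 28 tested collagen and laminin genes in HEK293 cells, 1 point per gene, with the median as a bar. Columns are day 3, day 6 and day 9 of DN-POLG cells and day 9 of NDI1/AOX cells, each against its own day 0. The points of DN-POLG cells stay between -0.85 and 0.93, and 21 of 28 are below 0 in NDI1/AOX cells.

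COL8A1 and COL7A1 were below the filter in HEK293 cells and had no test there. COL8A1 read 72.6, 139.8 and 22.6 in DN-POLG cells at day 0 and 44.0, 25.8 and 4.72 at day 9, which overlap. In NDI1/AOX cells it read 43.0, 55.6 and 67.5 at day 0 and 22.8, 6.35 and 2.19 at day 9. The latter groups did not overlap, in the same order as rho0 against rho+ cells, though most of these signals lie below the array median. COL7A1 read 69.5, 110 and 44.4 in DN-POLG cells at day 0 and 10.7, 20.4 and 10.8 at day 9. In NDI1/AOX cells it read 81.1, 77.0 and 73.5 at day 0 and 44.4, 14.6 and 7.81 at day 9. In both, the day 9 arrays lay below all day 0 arrays, the opposite order to rho0 against rho+ cells. COL8A1 and COL7A1 were singled out here after their values were seen. Of the 25 members below the filter, 2 did not overlap between day 0 and day 9 in DN-POLG cells, beside 10.9% of all genes below it. In NDI1/AOX cells 2 of 25 did not overlap, beside 13.2%. Such separation was thus no more common in members than in all genes below the filter.

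Of 67 helper genes tested, 3 were higher and 0 lower at day 9 in DN-POLG cells in limma. The shares over all genes tested were 1.30% higher and 6.40% lower. CRTAP, a part of the prolyl 3-hydroxylation complex for collagen, rose from 2722 ± 457 to 5573 ± 668 (SD, n = 3, log2 1.04, limma adjusted p = 0.0148). TIMP3, a matrix-bound inhibitor of metalloproteases, rose by 0.92 (adjusted p = 0.0425) and SMAD7 by 0.83 (adjusted p = 0.0076).

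NDI1/AOX cells addressed whether restored NADH oxidation alters the response. At day 0 they differed from DN-POLG cells in 0 members in limma, with 0 at an unadjusted p below 0.05, beside 5.01% of all genes, and 0 by analysis of variance at that level. After adjustment 0.00827% of all genes were higher and 0% lower. At day 9 against their own day 0, 1 of 28 tested members passed, COL4A4, which was lower. Among all genes, 1.56% were called higher and 10.1% lower, so 1 call in 28 is below the background of lower calls. Of the 28 differences 21 were below 0, beside 52.7% of all genes tested. The median over the 53 members was -0.32, beside -0.04 over all genes. Without the library labelled NDI1/AOX day 9 replicate 3, 17 of the 28 were below 0 (51.5% of all genes) and the median was -0.16, beside -0.00 over all genes.

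The call lay in collagen IV, the network collagen of basement membranes. COL4A4 read 304, 304 and 310 at day 0 and 152, 178 and 74.4 at day 9. The groups did not overlap, and the fall was 2.42-fold (log2 -1.28, SE 0.38, limma adjusted p = 0.0391). A dimmer probe set was called as well (log2 -1.73, adjusted p = 0.0160). The lowest of the day 9 values came from the library labelled NDI1/AOX day 9 replicate 3, in which the transgene was not raised. Without it the difference was -0.90 (adjusted p = 0.194), which did not pass. The call was also lost without day 0 replicate 1 (adjusted p = 0.0984), 2 (0.0998) or 3 (0.113) or day 9 replicate 1 (0.0589), and held without day 9 replicate 2 (0.0331). With the culture round as a block it was also short of the threshold (adjusted p = 0.0518).

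The other 5 collagen IV chains did not pass. COL4A1 read 1784, 2259 and 2357 at day 0 and 1406, 1281 and 625 at day 9 (log2 -1.03, adjusted p = 0.0881). COL4A5 read 199, 248 and 209 against 85.5, 109 and 57.7 (log2 -1.42, adjusted p = 0.0903). In both the groups did not overlap, while COL4A2 did overlap, at 778, 670 and 1023 against 1002, 628 and 428 (log2 -0.33, adjusted p = 0.653). Groups without overlap were common in this comparison. They were found for 10 of the 28 tested members (35.7%), COL4A4 among them, beside 54.3% of all genes tested. COL4A3 (-0.63, adjusted p = 0.357) and COL4A6 (-0.66, adjusted p = 0.230) had negative differences too. With only the 6 NDI1/AOX arrays in the fit, COL4A1, COL4A5, COL5A1 and COL13A1 passed beside COL4A4. That fit includes the library labelled NDI1/AOX day 9 replicate 3, and the share of all genes called in it was not computed.

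In DN-POLG cells the same 6 genes had log2 differences at day 9 between -0.44 (COL4A1) and 0.07. COL4A4 read 262, 91.2 and 260 at day 0 and 141, 208 and 154 at day 9 (log2 -0.16, adjusted p = 0.878). The difference between the day 9 responses of NDI1/AOX and DN-POLG cells was -1.12 for COL4A4 (SE 0.54, limma adjusted p = 0.999) and -1.22 for COL4A5 (SE 0.74, adjusted p = 0.999). Of the 28 members, 0 passed in limma for this difference of responses, with 1 (COL20A1) at an unadjusted p below 0.05, beside 3.02% of all genes, and 0 by analysis of variance. Among all genes tested 0% passed in either direction.

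**Figure D4:**
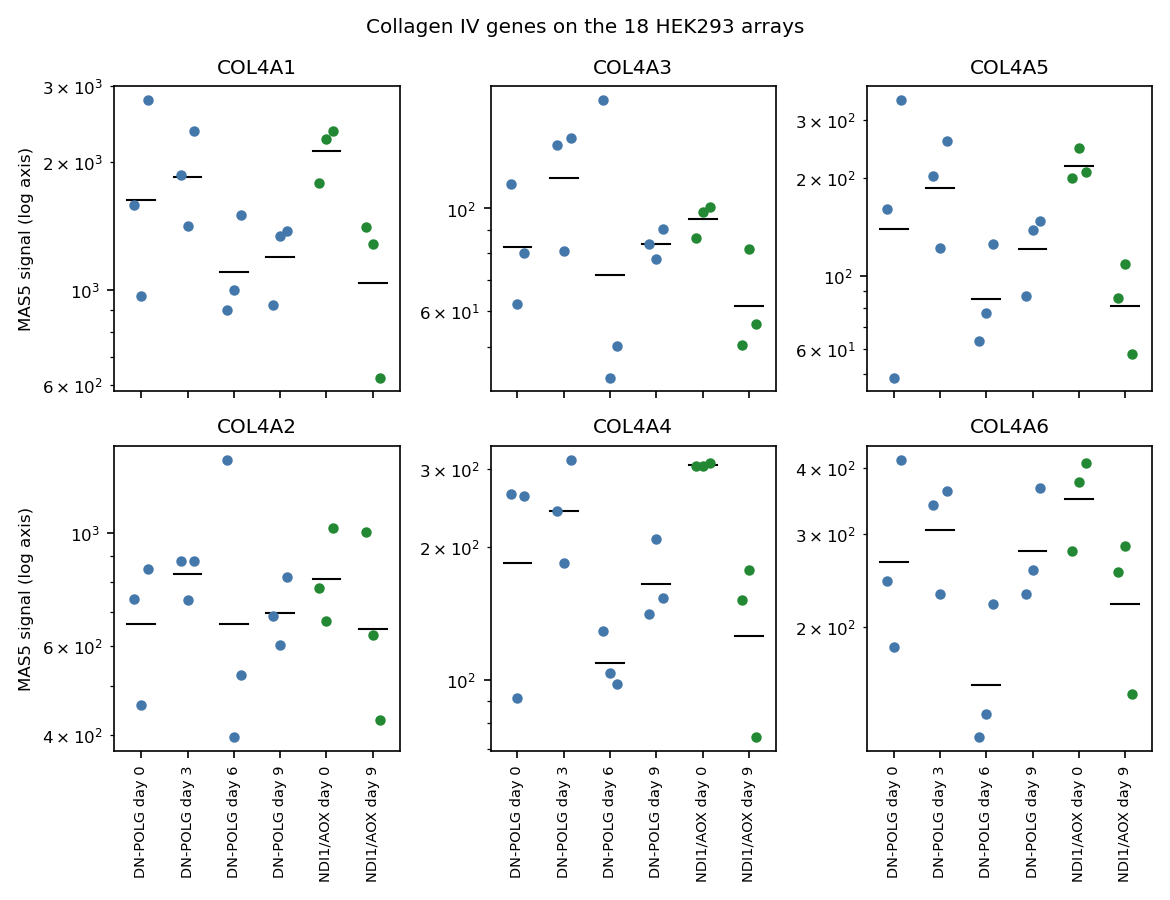
Signal (log axis) of the 6 collagen IV genes on the 18 HEK293 arrays, 1 point per array, with a bar at the geometric mean of each group of 3; each column holds a head-to-head gene pair. COL4A4 lies at 304 to 310 in NDI1/AOX cells at day 0 and at 178 or below at day 9, while its day 0 and day 9 values overlap in DN-POLG cells.

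The 3 collagen IV pairs share the DNA between their starts, which is shown because members of a pair could be read on either side of it. The stretches are from RefSeq on GRCh38.p14, plus strand, 5′ to 3′, and lie between the annotated starts of the genes. Capitals mark the letters CCAAT (the CCAAT box) and GGGCGG (the GC box bound by Sp1) on either strand. COL4A1 and COL4A2 start 126 bases apart (chr13:110307158-110307283), and COL4A3 and COL4A4 start 135 bases apart (chr2:227164489-227164623). COL4A5 and COL4A6 start 379 bases apart, of which the 250 next to COL4A5 are printed (chrX:108439588-108439837).
COL4A2 and COL4A1: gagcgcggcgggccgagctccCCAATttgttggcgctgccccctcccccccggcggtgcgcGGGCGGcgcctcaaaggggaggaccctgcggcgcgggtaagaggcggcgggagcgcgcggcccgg
COL4A3 and COL4A4: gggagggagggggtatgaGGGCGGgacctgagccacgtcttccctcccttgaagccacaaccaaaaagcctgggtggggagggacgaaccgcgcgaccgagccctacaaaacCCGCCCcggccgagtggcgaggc
COL4A5 and COL4A6: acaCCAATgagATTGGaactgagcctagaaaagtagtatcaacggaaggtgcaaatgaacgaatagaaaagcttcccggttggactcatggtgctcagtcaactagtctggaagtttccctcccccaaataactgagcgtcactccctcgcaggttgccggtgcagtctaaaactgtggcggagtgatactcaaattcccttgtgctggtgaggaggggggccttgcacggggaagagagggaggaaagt

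The first stretch is 80.2% G and C and holds a match to each box, the second is 68.1% and holds 2 GC box matches, and the third is 51.2% and holds 2 CCAAT matches. These are matches of letters, not known binding sites. In NDI1/AOX cells the pair partners did not move to the same extent: COL4A1 and COL4A2 differed at day 9 by -1.03 and -0.33, and COL4A4 and COL4A3 by -1.28 and -0.63. These differences within pairs were not tested.

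For comparison, 250 bases before a RefSeq start of LAMA4, the member that rose most in rho0 cells, are given on the minus strand (chr6:112254568-112254817, GRCh38.p14). This start lies 418 bases inside the outermost annotated end of the gene, so the stretch is within the annotated gene. None of the 4 motifs searched occurs in it.
LAMA4: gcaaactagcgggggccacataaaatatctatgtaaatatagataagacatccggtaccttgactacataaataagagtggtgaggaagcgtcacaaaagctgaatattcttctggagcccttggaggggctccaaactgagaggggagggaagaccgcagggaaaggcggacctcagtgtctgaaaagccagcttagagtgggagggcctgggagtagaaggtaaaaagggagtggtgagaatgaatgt

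Windows of 300 bases, from 250 before to 50 after a RefSeq start, were at hand for 39 of the 53 members. GGGCGG or its complement lay in 23 of them (59%), against 45% of 35116 windows of all genes. CCAAT lay in 10 (25.6%, against 34.6%), TATAAA in 4 (10.3%, against 11.5%) and TGANTCA, the AP-1 site, in 0 (against 7.71%). The motifs do not overlap each other by their letters, and both strands were read. The median G and C content was 66.0% in the members and 58.7% in all windows. No window of COL1A1, COL1A2, COL2A1, COL3A1, COL5A2, COL6A1, COL6A5, COL8A1, COL9A3, COL14A1, COL20A1, COL22A1, LAMA1 or LAMC3 was scanned. By position, 8 of the 53 genes lie on chromosome 6 (COL9A1, COL10A1, COL11A2, COL12A1, COL19A1, COL21A1, LAMA2 and LAMA4), and these had no common direction in rho0 cells.

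Members tended to be low together in single cultures of a group. In rho0 cells, replicate 3 was the lowest of the 3 cultures for 26 of the 29 tested members (89.7%), against 38.1% of all tested genes. The library labelled NDI1/AOX day 9 replicate 3 was the lowest for 23 of 28 (82.1%), against 38.3%. In DN-POLG cells at day 0, replicate 2 was the lowest for 21 of 28, against 39.7%. COL4A1, for example, read 2405 in rho0 replicate 3 against 7394 and 7983 in its partners. LAMB1, the main beta chain, read 353 in DN-POLG day 0 replicate 2 against 1213 and 2778. The ACTB ratios of these 3 cultures, 5.53, 1.36 and 1.19, lay within or below those of the other cultures of their groups, and their part in this pattern was not tested. Without DN-POLG day 0 replicate 2, COL4A4 passed as lower at day 6.

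The comparison of the uninduced lines shows what matrix program each cell model started from. In 143B rho+ cells against DN-POLG cells at day 0, 21 of 29 tested members were higher and 4 lower. The filter used the mean over all 24 arrays, so some members reached it only through the line where they were high. These included COL6A3, LAMB3 and LAMA2 through 143B cells, and the 4 lower calls through HEK293 cells. The counts depend on this, and the same filter applied to all genes. Over all genes 24.3% were called higher and 42.7% lower, so members were called higher more often than the background and lower less often, and that difference was not tested. The median log2 difference of the 53 members was 1.76, beside -0.28 over all genes. The cell lines also differed in RNA quality, as given above, and every sample of a line shares its origin.

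COL6A3, the long chain of collagen VI, read 6415, 11235 and 9282 in rho+ cells and 10.1, 32.1 and 10.4 in DN-POLG cells at day 0. The log2 difference was 9.19 as measured (SE 0.75, limma adjusted p = 2.56e-09). All 3 DN-POLG signals lay below the array median, and with them raised to it COL6A3 was at least 127.5-fold higher in rho+ cells. For COL6A1 the log2 difference was 2.08 (adjusted p = 2.61e-04). LAMB3, a beta chain of epithelial laminin, had mean signals of 3187 and 41.8 (log2 6.53 as measured, adjusted p = 5.06e-07), at least 38.3-fold higher by the same bound. LAMA2 was at least 4.36-fold higher by it. LAMA1, LAMA2, LAMB1, LAMB2 and LAMC1 were higher too, by 2.16 (LAMC1) to 3.73 (LAMB2). LAMA4 (-1.04, adjusted p = 0.0879), LAMA5 (0.94, adjusted p = 0.0762) and LAMC3 (0.57, adjusted p = 0.505) did not pass.

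The rest of the higher calls lay in several classes of collagen. COL5A2, a fibril-initiating chain, had mean signals of 3438 and 149 (log2 4.96, adjusted p = 3.12e-07), and its partner COL5A1 differed by 1.58 (adjusted p = 0.0034). COL12A1 (4.48), COL13A1 (4.12), COL18A1 (3.85), COL27A1 (3.43) and COL9A2 (1.93) were also higher. COL7A1 passed at 2.08 (adjusted p = 0.0134) and lost its call without DN-POLG day 0 replicate 3, without rho+ replicate 3, with quantile normalization and with probe sets averaged. COL1A1 passed at 2.09 (adjusted p = 0.0095), though its groups overlapped, with 278 on the lowest rho+ array and 428 on the highest DN-POLG array. It lost its call without rho+ replicate 3 (adjusted p = 0.0801), without DN-POLG day 0 replicate 2 (0.0727) and in a fit of only these 6 arrays (0.0515). Its trimer partner COL1A2 was dim in both, with mean signals of 13.3 in rho+ cells and 13.9 in DN-POLG cells at day 0. Of collagen IV, COL4A1 (2.18), COL4A2 (2.37), COL4A5 (2.52) and COL4A6 (1.19) were higher in rho+ cells.

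The 4 lower calls were COL14A1, COL21A1, COL4A4 and COL11A2, each at or below the array median on all 3 rho+ arrays. With those signals raised to the median they were at least 1.90-fold, 1.86-fold, 1.89-fold and 1.03-fold lower in rho+ cells. COL14A1, a fibril-associated collagen of tendon and skin, read 9.70, 19.0 and 4.67 in rho+ cells and 220, 98.2 and 293 in DN-POLG cells (log2 -4.28, SE 0.62, limma adjusted p = 5.22e-06). COL21A1 differed by -3.86 (adjusted p = 2.81e-04) and COL4A4 by -1.67 (adjusted p = 0.0011). COL11A2, a cartilage fibril chain, differed by -1.30 (adjusted p = 0.0034). Its other probe set had the opposite sign: with probe sets that match several transcripts left out, COL11A2 stood at 1.07 (adjusted p = 0.0833). COL9A3 and COL8A1 were below the filter over all 24 arrays. COL9A3 read 5701 or more in rho+ cells and 27.1 or less in DN-POLG cells at day 0, and COL8A1 1531 or more and 140 or less. With no filter both passed as higher.

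**Figure D5:**
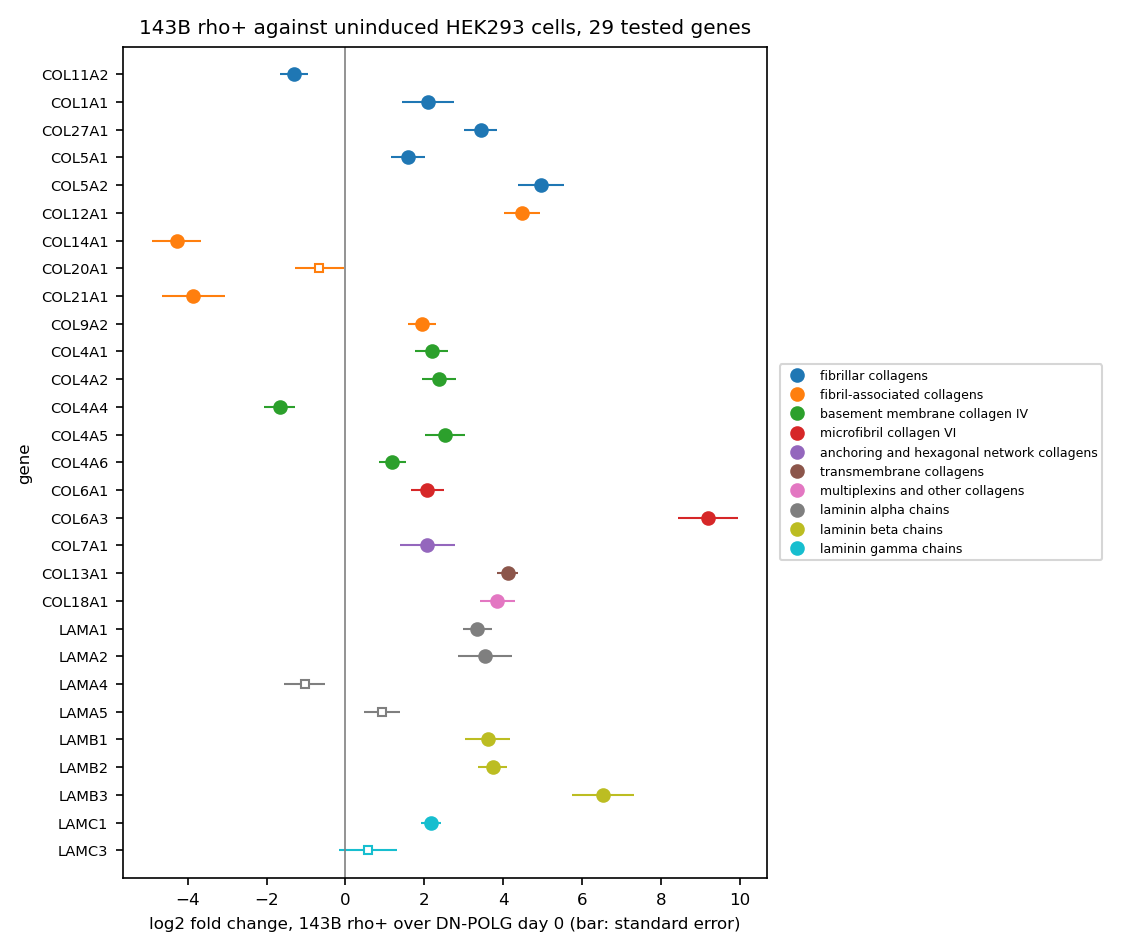
Log2 fold change of 143B rho+ cells over DN-POLG cells at day 0 for the 29 tested collagen and laminin genes, grouped by class. Large filled circles passed limma at an adjusted p below 0.05, open squares did not, and bars are standard errors. COL6A3 (9.19) and LAMB3 (6.53) lie farthest to the right and COL14A1 (-4.28) farthest to the left as measured, each against signals mostly below the array median.

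Genes that handle the chains differed between the lines as well, and the examples here were chosen after their values were seen. Of 70 tested, 49 were higher and 8 lower in rho+ cells, beside 24.3% and 42.7% of all genes tested. The filter over all 24 arrays held here too, so genes dim in DN-POLG cells, such as MMP1 and SPARC, could reach it through 143B cells alone. The counts depend on this, and their difference from the background was not tested. Of 9 tested receptors 8 were higher in rho+ cells and 0 lower in limma, among them DDR2, a collagen receptor kinase (log2 6.43 as measured, adjusted p = 6.95e-11, at least 84.4-fold), and ITGA2, the alpha chain of a collagen integrin (5.33, adjusted p = 4.75e-08). Of 8 tested basement membrane partners 7 were higher, with SPARC, which binds collagen, at 7.53 as measured (adjusted p = 9.91e-08, at least 92.1-fold). The interstitial collagenase MMP1 had mean signals of 24789 and 38.2 (log2 9.37 as measured, adjusted p = 1.52e-09), at least 361-fold higher with the DN-POLG signals raised to the array median. Of 18 tested folding and modification genes 10 were higher and 3 lower, the latter including P4HB, a subunit of prolyl 4-hydroxylase (-2.24, adjusted p = 1.17e-04).

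In NDI1/AOX cells at day 9, 1 of 67 tested helper genes was higher and 4 were lower. Over all genes tested 1.56% were higher and 10.1% lower, so these counts do not stand above the background. The collagen integrin chain genes ITGA2 (log2 -2.69, limma adjusted p = 0.0064) and ITGA1 (-0.96, adjusted p = 0.0369) fell. NTN4, a netrin that binds laminin, fell by 1.62 (adjusted p = 0.0295) and LOXL1, a cross-linking oxidase, by 0.77 (adjusted p = 0.0106). TIMP3 rose by 1.02 (adjusted p = 0.0192). These values include the library whose transgene signal was not raised.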

How the data were processed

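RNA of 24 cultures was amplified by a 3′ in vitro transcription kit and hybridised to Affymetrix arrays. The deposited intensity values are linear MAS5 signals that the authors made in Expression Console. The 2% trimmed mean was 500.1 on every array, and no count or read depth exists, so 3 arrays a group limit precision. Groups and replicates came from the sample titles. Of 54675 probe sets, 41091 had 1 gene symbol in GEO's platform annotation, 1801 several and 11777 none. RefSeq matched 41043 by Entrez ID and changed 0 symbols.

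Signals were taken as log2 with nothing added and fitted with limma 3.58.1 in R 4.3.3 (lmFit, contrasts.fit, eBayes). The 143B arrays, the HEK293 arrays and, between lines, all 24 arrays were fitted apart. Tested were probe sets with 1 symbol and a mean log2 signal at or above the array-wide median. Benjamini-Hochberg adjustment ran over all probe sets tested, with a threshold of 0.05. SE is the moderated standard error. No detection calls were used, so for signals at or below an array's median a bound was computed after the data were seen, with such signals of the dimmer group set to that median. Counts of members and of all genes use 1 probe set per gene. Named were members called in a comparison (up to the 12 with the largest change per direction), their trimer or gene pair partners, and of each list of other matrix genes up to 4 with the smallest p in 143B and up to 4 over the HEK293 comparisons. Members below the filter, and other genes singled out, were chosen after their values were seen. The members, lists and tests were chosen with earlier results of these data known.

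The study's scheme starts each culture round of DN-POLG or NDI1/AOX cells from 1 starter culture, so replicate numbers pair samples there. Same-numbered cultures correlated at 0.30 to 0.48 between days 0 and 3, at 0.17 to 0.20 between days 0 and 6, and at -0.30 to 0.03 between days 0 and 9. In NDI1/AOX cells it was -0.04 to 0.05. The 143B samples have no stated pairing (-0.11 to 0.04). The methods name an analysis of variance, run as an alternative. The fitting code was tested on simulated data.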

Additional observations from a re-analysis of the deposited data

How the results depend on the processing

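Counts of members called depended on the settings. Shares of all genes called were computed for the main fits only, so the counts in other settings have no background beside them. In 143B rho0 against rho+ cells the 7 calls became 4 with a filter at the 75th percentile, 4 with probe sets averaged, and 1 with the methods' analysis of variance (11 at its unadjusted p, an alternative added after the data were seen). They ranged from 2 (without rho+ replicate 1 or 2) to 11 (without rho0 replicate 3) when 1 culture was left out, with 3 without each of the others. With quantile normalization, no filter, 50 added to the signal or no multiple-match probe sets they were 7, 6, 8 and 5. Similar counts did not mean the same genes. With no filter LAMA4 and COL8A1 alone kept their calls, and the other calls were of members below the main filter. With the replicate number as a block, 143B had 3 calls (LAMA4, COL22A1 and COL8A1). The 143B numbers are not known to pair cultures.

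In NDI1/AOX cells at day 9 the 1 call became 0 with quantile normalization, no filter, the 75th percentile, averaged probe sets, the replicate block or the analysis of variance. It became 5 in a fit of only the arrays compared, 5 at the unadjusted p, and 0 to 2 with 1 culture left out. The block changed no other call. In DN-POLG cells at day 6 the count went from 0 to 1 at the unadjusted p, and stood at 0 to 1 with 1 culture left out. All settings run gave 0 for days 3 and 9, for NDI1/AOX against DN-POLG cells at day 0 and for the difference of responses. Leaving out DN-POLG day 6 replicate 1 changed none of these counts.

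Between the lines, the 25 calls became 8 with the 75th percentile and 16 without multiple-match probe sets. They were 34 with no filter, 30 with 50 added, 20 with probe sets averaged, 25 in the other settings and 22 to 25 with 1 culture left out. An equal count did not always mean the same genes. In the fit of only the arrays compared COL11A2, COL14A1, COL1A1 and COL21A1 lost their calls. COL2A1, COL8A1, COL9A3 and LAMA5 gained one there. Without multiple-match probe sets COL11A2 reversed to 1.07 (adjusted p = 0.0833). The stricter filter tests fewer genes. Where other settings moved a count, the cause was not tested. No block was fitted between models. Of the tested values for single genes, 361 kept direction and call, 59 lost the call and 1 reversed.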
